A study of Mus musculus with 6 samples.

Results

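Guanylate-binding proteins (GBPs) and immunity-related GTPases (IRGs) are families of large GTP-hydrolyzing enzymes whose genes are switched on by interferons. RNA-seq values of 10 of their genes were examined, the 6 GBP genes Gbp2, Gbp3, Gbp4, Gbp5, Gbp6 and Gbp7 and the 4 IRG genes Igtp, Irgm1, Irgm2 and Iigp1. They are the rows whose Ensembl gene ID carries one of these symbols in the GENCODE M21 annotation, and all 10 were found among the 54532 genes listed. The RNA came from primary cardiomyocytes of neonatal mouse hearts, from mice 1 to 3 days old. Rit1, which encodes a GTPase of the RAS family, had been engineered in these mice so that Cre recombinase starts expression of its M90I variant. On day 3 after isolation, the cells were infected with an adenovirus that encodes GFP (AdGFP, genotype label Rit1 +/+) or GFP-Cre (AdCre, genotype label Rit1 M90I/+). RNA was taken on day 6 after infection. Each group held 3 samples, labelled as biological replicates 1 to 3. Cells of all 6 samples had been isolated from mice with the engineered locus and had received virus. None of the 6 samples was AdCre on cells without that locus, and the virus differed between the groups. The variant, the recombinase and the virus preparation therefore cannot be told apart.

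Interferon-gamma signals through its receptor and the kinases JAK1 and JAK2 to gamma-activated sites (GAS) in DNA. Type I interferons signal through a complex that holds STAT2 and IRF9 and binds interferon-stimulated response elements (ISRE). GBPs and IRGs then gather on the vacuoles of intracellular microbes and help to break them open, and GBPs also feed bacterial products to inflammasomes. The IRGM proteins Irgm1, Irgm2 and Igtp sit on the host's own membranes and hold effector IRGs such as Iigp1 in the inactive state.

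These families and their regulatory branch can be told apart in the nucleotide-binding stretch of the coding sequence. The 8 codons of the P-loop, which holds the phosphates of GTP, are given here from the GENCODE M21 transcripts of the 9 members printed, to show the codon (in capitals) at which the IRGM genes depart from the other members. The names refer to the transcript used.
Gbp2-201: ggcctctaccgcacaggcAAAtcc
Gbp3-203: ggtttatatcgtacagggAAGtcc
Gbp4-201: ggatggtcccatacagggAAGtcc
Gbp5-201: ggtctttatcgcacaggcAAAtcc
Gbp6-201: ggattgtaccgtacagggAAGtcc
Gbp7-202: ggactataccgtacgggaAAAtcc
Igtp-201: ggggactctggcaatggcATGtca
Irgm1-201: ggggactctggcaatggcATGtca
Irgm2-203: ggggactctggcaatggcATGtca
All 6 GBP genes carry a lysine codon, AAA or AAG, at the position in capitals, as does Iigp1. Igtp, Irgm1 and Irgm2 carry the methionine codon ATG instead, and their 24 bases are the same. The stretch begins at codon 39 of 620 in Gbp3 and at codon 45 of 589 in Gbp2. It begins at codon 83 in Irgm1 and Irgm2, which have 409 and 407 codons, and at codon 91 of 423 in Igtp.

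Promoter records of RefSeq (GRCm38.p6, the 250 bases before each transcript start were searched) were found for 7 of the 10 members, Gbp2, Gbp3, Gbp5, Gbp7, Igtp, Irgm1 and Irgm2. An ISRE core, written GAAANNGAA and searched on both strands, was present in 7 of these 7, against 8.18% of the 27025 genes with a record. A GAS, written TTCNNNGAA, which reads alike on both strands, was present in 4 of 7 (Gbp5, Gbp7, Igtp and Irgm2), against 8.13% of genes. The matches nearest to the start are printed with the ISRE core in capitals, 5′ to 3′ along the gene's strand. In the GBP genes the core lies on the other strand and therefore reads TTCNNTTTC.
Gbp2, chr3:142620595-142620623, plus strand: ctcttttagtTTCACTTTCactgtcttaa
Gbp3, chr3:142559996-142560024, plus strand: cagtttcagtTTCTATTTCccagatccct
Gbp5, chr3:142496760-142496788, plus strand: cttgtgtagtTTCAATTTCagtttagaga
Gbp7, chr3:142530274-142530302, plus strand: tgtgtgcagtTTCAGTTTCagttctccat
Irgm1, chr11:48871426-48871454, minus strand: tcaagaaataGAAACCGAAactgattctc
In Igtp and Irgm2 a GAS and an ISRE core lie 2 bases apart, and both are in capitals.
Igtp, chr11:58199506-58199535, plus strand: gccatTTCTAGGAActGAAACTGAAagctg
Irgm2, chr11:58214897-58214926, plus strand: gccatTTCCAGGAActGAAACTGAAagctg
The core began 24 bases before the start in Irgm1, 34 in Igtp, 38 in Gbp3, 52 in Gbp7, 58 in Gbp2, 64 in Irgm2 and 164 in Gbp5. Gbp3 and Irgm1 held a further core 6 bases upstream that overlaps the printed one. Among GBP and IRG genes outside the members, the records of Gbp2b, Gm12185, Gm12250, Tgtp1 and Tgtp2 held an ISRE core. Those of 9930111J21Rik1, 9930111J21Rik2, Gm5431, Ifi47 and Irgq did not. In Tgtp1, Tgtp2 and Gm12185 a GAS lay just before the core, as in Igtp and Irgm2. The GAS began 88, 81 and 86 bases before the start, and the core 77, 70 and 75. In GENCODE M21 longer transcripts start further upstream, so the stretches of Gbp5, Irgm1 and Irgm2 lie inside the annotated gene body and that of Gbp2 partly so. A match of letters is a description of these windows, and binding was not measured.

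Levels are given in FPKM, fragment counts divided by exon length and depth, as deposited. The values are multiples of whole reads for at least 98.1% of low values in each sample, and 25.3 to 32.4 M reads (M, megareads) per sample were recovered. For a gene with 2 kb of exon, 49.3 to 64.1 reads gave 1 FPKM. The targeted gene, Rit1, had 7.66, 8.99 and 9.01 FPKM in AdGFP and 8.90, 9.10 and 9.58 FPKM in AdCre (log2 fold change 0.11), which does not distinguish the allele. All 10 cardiomyocyte markers were expressed, with sums of 2275 to 3324 FPKM in AdGFP and 1387 to 2000 FPKM in AdCre. Markers of fibroblasts, endothelial cells and macrophages were expressed as well. In such bulk RNA fewer cells of a type and less RNA per cell cannot be told apart.

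The IRG members were the more abundant branch. Irgm1 had the highest mean level of the 10, followed by Irgm2, Igtp, Iigp1, Gbp2, Gbp3, Gbp7, Gbp6, Gbp5 and Gbp4. Irgm1 lay above Irgm2 in 5 of 6 samples, with nearly equal levels in AdGFP 2, Irgm2 above Igtp in 6 of 6, and Igtp above Iigp1 in 6 of 6. The order of Iigp1, Gbp2, Gbp3 and Gbp7 was not held in every sample, since Iigp1 exceeded Gbp2 in 3 of 6, Gbp2 exceeded Gbp3 in 4 of 6 and Gbp3 exceeded Gbp7 in 4 of 6. Gbp6 exceeded Gbp5 in 5 of 6. Irgm1 alone made up 55.9% and 60.2% of the summed FPKM of the 10 in AdGFP 1 and AdCre 1, and 25.2% to 33.0% in the other 4 samples.

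**Figure D1:**
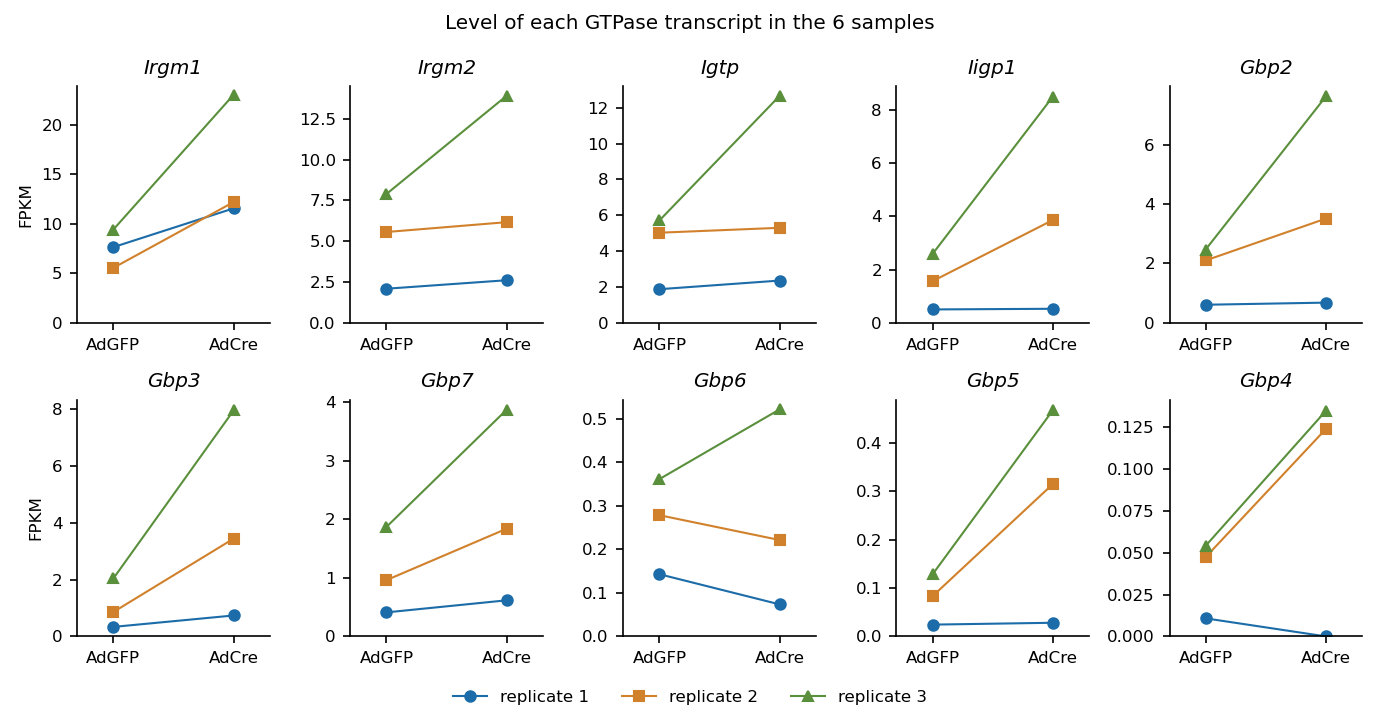
FPKM of each of the 10 members in the 6 samples, ordered by mean level, with lines joining the AdGFP and AdCre samples of the same replicate number; each panel has its own linear axis from 0. Replicate 1 is the lowest of its group for every member but Irgm1, where AdGFP 2 is the lowest of its group, and AdCre 3 is the highest sample in all 10 panels.

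The comparison of AdCre with AdGFP asks which of these genes differed after Cre delivery, with the variant, the recombinase and the virus preparation together. The summed level of the 10 was 13.7, 22.0 and 32.5 FPKM in AdGFP 1 to 3 and 19.2, 37.0 and 78.7 FPKM in AdCre 1 to 3. It was higher in AdCre in each same-numbered pair, but the groups overlapped. GBP members summed to 1.53, 4.33 and 6.92 FPKM in AdGFP and 2.14, 9.45 and 20.6 FPKM in AdCre, and the 4 IRG members to 12.1, 17.7 and 25.6 FPKM and 17.1, 27.5 and 58.1 FPKM. A mean of at least 0.5 FPKM was needed for a test, which 7 of the 10 members and 13794 genes in all had. Gbp4, Gbp5 and Gbp6 fell below it. The test was limma on log2(FPKM + 0.1), so that fold changes of low genes are understated, and a gene is said to be called at a Benjamini-Hochberg adjusted p under 0.05 over all 13794 genes.

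Without regard to the replicate number, 0 of the 7 tested members were called by limma, and 1 of the 7, Irgm1, had an unadjusted p under 0.05. Voom on the recovered reads gave the same counts of 0 and 1. Across all genes limma on log2(FPKM + 0.1) called 0.00725%, and 10.2% had an unadjusted p under 0.05. Samples of the same number deviated together from their group means, and with the number as a block (the replicate block) 2 of the 7 were called, Gbp3 and Irgm1, both higher in AdCre. That fit called 6.15% of all genes in either direction and 2.64% as higher. Of the 7, 6 had an unadjusted p under 0.05 and were higher, against 11.5% of all genes. All 7 were higher in AdCre in all 3 pairs, against 23.9% of all genes, and in 1 of the 7 the lowest AdCre level exceeded the highest AdGFP level, against 7.36%. The median log2 fold change was 0.81 over the 7 and -0.0022 over all genes tested. Within pairs the median of the 7 was 0.31, 0.87 and 1.28 for numbers 1, 2 and 3. The count of 2 was 0 without number 2, 0 without number 3 and 5 without number 1. It was also 0 without a filter on low values and 0 without an intensity trend, where 0 of all genes were called, 1 with a pseudocount of 1, and 6 by voom.

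Irgm1 (chr11:48861968-48871683, minus strand; ENSMUSG00000046879) was the member whose groups were separate. It encodes a membrane-bound IRGM protein that restrains effector IRGs and takes part in autophagy. Its levels were 7.64, 5.55 and 9.42 FPKM in AdGFP and 11.6, 12.2 and 23.0 FPKM in AdCre, from 818 to 3705 reads. The lowest AdCre sample lay above the highest AdGFP sample, and the ratios within pairs were 1.51, 2.20 and 2.44. The log2 fold change was 1.00 with an SE of 0.31 without the block (limma adjusted p = 0.350, unadjusted p = 0.0143) and an SE of 0.14 with it (adjusted p = 0.0269). The exact permutation test, two-sided, gave p = 0.1, the smallest that 3 samples against 3 allow. Over 14 alternatives of the blocked fit the log2 fold change ran from 0.86 to 1.20 and the adjusted p from 0.000839 to 0.117.

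Irgm2 (chr11:58199618-58222782, plus strand; ENSMUSG00000069874) and Igtp (chr11:58199556-58207591, plus strand; ENSMUSG00000078853), the other regulatory genes, had another order of samples than Irgm1. Irgm2 had 2.09, 5.57 and 7.89 FPKM in AdGFP and 2.61, 6.17 and 13.9 FPKM in AdCre. Igtp had 1.88, 5.03 and 5.72 FPKM in AdGFP and 2.36, 5.30 and 12.7 FPKM in AdCre. In both, the number 1 samples were lowest in either group and AdCre 3 stood above the rest, with overlap of the groups. For Irgm2 the ratios within pairs were 1.25, 1.11 and 1.76, and the log2 fold change was 0.42 (SE 0.15, limma adjusted p = 0.153 with the block). For Igtp the ratios were 1.26, 1.05 and 2.22, and the log2 fold change was 0.51 (SE 0.21, limma adjusted p = 0.208 with the block). Single samples moved both without the block. Leaving out AdCre 3 gave log2 fold changes of -0.17 for Irgm2 and -0.09 for Igtp, leaving out AdGFP 1 gave -0.12 and 0.02, leaving out AdCre 1 gave 1.02 and 1.09, and leaving out AdGFP 3 gave 0.81 and 0.80. With the block and without number 3 they were 0.23 and 0.19. The annotations of both genes share 162 bases of exon, and 11.8% of the 50-base words of Igtp transcripts also occur in Irgm2. The counts of both are therefore uncertain in these stretches.

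Gbp3 (chr3:142560026-142573209, plus strand; ENSMUSG00000028268) had the largest fold change among the 7 tested members. GBP3 is a dynamin-like GTPase of the family that coats microbial surfaces. Its levels were 0.335, 0.857 and 2.04 FPKM in AdGFP and 0.736, 3.44 and 7.95 FPKM in AdCre, from 27 to 719 reads. The groups overlapped because AdCre 1 lay below AdGFP 2 and AdGFP 3, while within pairs the level was 2.20, 4.01 and 3.90 times higher. The log2 fold change was 1.58, with an SE of 0.89 and a limma adjusted p of 0.627 without the block and an SE of 0.24 and an adjusted p of 0.0276 with it. Over the 14 alternatives of the blocked fit it ran from 1.07 to 1.93, with adjusted p from 0.000526 to 0.150. Without the block it was 0.84 when AdCre 3 was left out, 1.01 without AdGFP 1 and 2.47 without AdCre 1. Of the 50-base words of its transcripts, 3.75% also occur in Gbp7.

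Gbp2 and Gbp7 lie in the same cluster on chromosome 3, at chr3:142620602-142638008 (ENSMUSG00000028270) and chr3:142530342-142550149 (ENSMUSG00000040253), both on the plus strand. GBP2 is a lipid-modified GBP that targets vacuoles and bacteria. Gbp2 had 0.611, 2.10 and 2.47 FPKM in AdGFP and 0.683, 3.51 and 7.62 FPKM in AdCre. Gbp7 had 0.411, 0.962 and 1.87 FPKM in AdGFP and 0.617, 1.84 and 3.88 FPKM in AdCre. Both showed the same picture of a low number 1 pair, a higher AdCre 3 and overlapping groups. Ratios within pairs were 1.12, 1.67 and 3.09 for Gbp2 and 1.50, 1.91 and 2.07 for Gbp7. The log2 fold change of Gbp2 was 0.81 (SE 0.87 without and 0.28 with the block, limma adjusted p = 0.834 and 0.148). That of Gbp7 was 0.79 (SE 0.71 and 0.19, limma adjusted p = 0.792 and 0.0696). Over the 14 alternatives of the blocked fit Gbp7 was called in 4, with adjusted p from 0.00512 to 0.322, and Gbp2 in 2, with adjusted p from 0.0147 to 0.429. Without the block, leaving out AdCre 3 took the log2 fold change of Gbp2 to 0.08 and that of Gbp7 to 0.21, leaving out AdGFP 1 took them to 0.23 and 0.29, and leaving out AdCre 1 took them to 1.73 and 1.44. Without AdGFP 3 that of Gbp7 was 1.26. Exons of Gbp7 overlap those of Gm43802 over 637 bases, and Gm43802 was listed at 0 in all samples.

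Iigp1 (ENSMUSG00000054072) is an effector IRG that loads onto vacuole membranes when it is bound to GTP, and the member that lies apart from the others, on chromosome 18 (60376027 to 60392634, plus strand). It had 0.506, 1.57 and 2.59 FPKM in AdGFP and 0.530, 3.86 and 8.49 FPKM in AdCre. The number 1 pair was nearly level, with a ratio of 1.05, while the others gave 2.46 and 3.28, and the groups overlapped. Its log2 fold change was 0.99 (SE 0.98 without and 0.31 with the block, limma adjusted p = 0.817 and 0.125). With the block it was 1.46 without number 1 (limma adjusted p = 0.00639), 0.87 without number 2 (adjusted p = 0.342) and 0.65 without number 3 (adjusted p = 0.404). Without the block it was 0.18 when AdCre 3 was left out, 0.39 without AdGFP 1 and 2.06 without AdCre 1. Its values came out as whole reads (78 to 1468) with an exon length of 6242 bases and not with the 5823 bases of GENCODE M21, so the annotation behind the file differs there.

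Gbp4, Gbp5 and Gbp6 were below the 0.5 FPKM needed for a test. Gbp5 (chr3:142493978-142522344, plus strand; ENSMUSG00000105504), which promotes inflammasome assembly, had 4, 14 and 21 reads in AdGFP and 6, 54 and 86 reads in AdCre, or 0.0244, 0.0832 and 0.128 FPKM and 0.0282, 0.315 and 0.468 FPKM. Gbp4 (chr5:105115767-105139586, minus strand; ENSMUSG00000079363) had 2, 9 and 10 reads in AdGFP and 0, 24 and 28 reads in AdCre, with none of them in AdCre 1. Gbp6 (chr5:105270702-105293698, minus strand; ENSMUSG00000104713) had 21, 42 and 53 reads in AdGFP and 14, 34 and 86 reads in AdCre. Gbp5 was thus higher in AdCre in 3 of 3 pairs, Gbp4 in 2 of 3 and Gbp6 in 1 of 3, and the groups overlapped for all 3 genes. When genes of any level were fitted with the block, limma gave log2 fold changes of 0.85 for Gbp5 (adjusted p = 0.399), 0.35 for Gbp4 (adjusted p = 0.595) and -0.10 for Gbp6 (adjusted p = 0.909). Of the words of Gbp6 transcripts, 70.7% occur in other genes, mainly Gm43302 and Gbp10, so its count is uncertain.

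How the variation was divided set Irgm1 apart. In a split of the log2 values of each gene into group, replicate number and remainder, the number took 65.8% to 92.2% of the sum of squares in 6 of the 7 tested members, and the group 5.39% to 31.6%. For Irgm1 the group took 62.6% and the number 31.9%. The median over all genes tested was 16.0% for group and 59.2% for number, so a larger part for the number was the usual case among these samples. Over the 6 samples, which all genes share, the Pearson correlation among Gbp2, Gbp3, Gbp7, Igtp, Irgm2 and Iigp1 was between 0.917 and 0.994, and that of Irgm1 with each of them between 0.553 and 0.790.

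**Figure D2:**
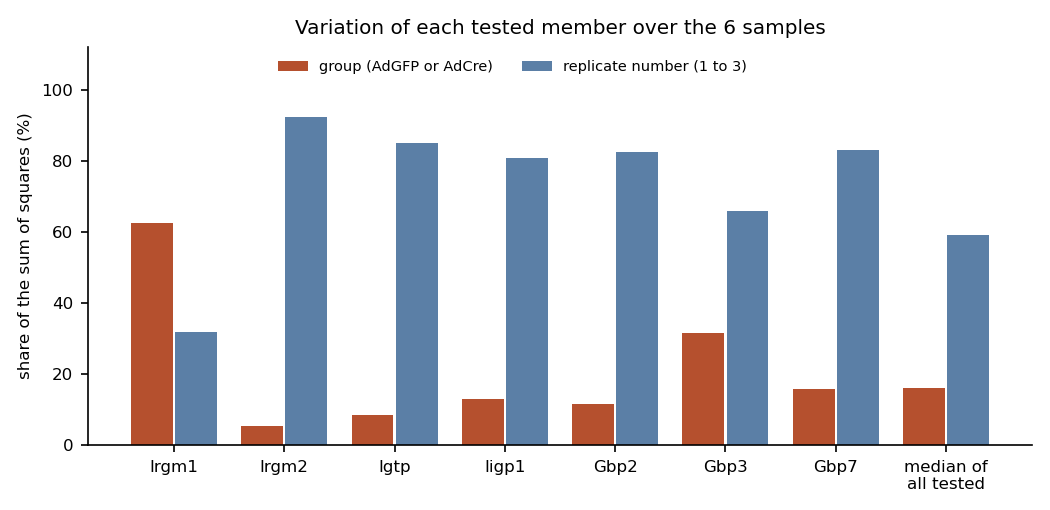
Share of the sum of squares of log2(FPKM + 0.1), in percent, taken by group and by replicate number for each tested member and as the median of all 13794 genes tested. Irgm1 is the member whose bar for group (62.6%) is above that for number (31.9%).

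**Figure D3:**
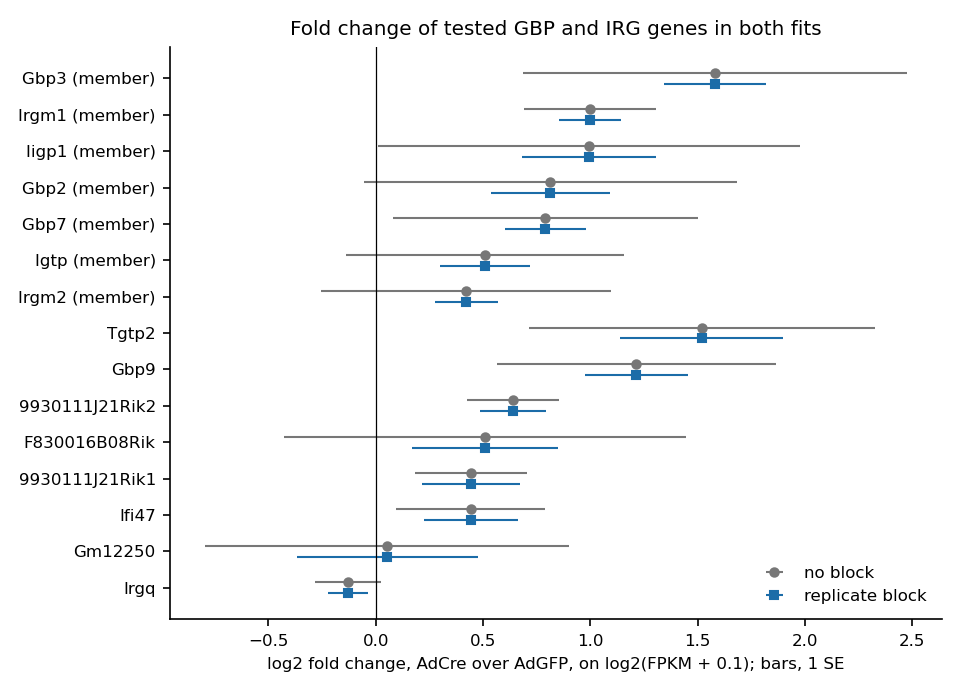
Log2 fold change of AdCre over AdGFP for the tested members and the other tested GBP and IRG genes, with bars of 1 SE from limma without the block (circles) and with the replicate block (squares). The members run from 0.42 (Irgm2) to 1.58 (Gbp3), and the bars shrink with the block for all 7 members.

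Among the remaining GBP genes, 1 of 5 was high enough for a test. Gbp9 had 0.250, 0.838 and 0.886 FPKM in AdGFP and 0.579, 1.77 and 3.08 FPKM in AdCre, with overlap of the groups. Its log2 fold change was 1.21 (SE 0.24), and it was called with the block (limma adjusted p = 0.0474, and 0.605 without the block), in 8 of 14 alternatives. Gbp8, Gbp10 and Gbp11 stayed at or below 0.189 FPKM in every sample, and Gbp2b was listed at 0 in all 6, where 3 reads would have been at most 0.0431 FPKM.

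Of 13 further IRG genes, 7 were tested and 0 were called by limma with the block, with 2 of the 7 at an unadjusted p under 0.05 and 2 called by voom. Tgtp2, an effector IRG, had 0.151, 0.188 and 0.773 FPKM in AdGFP and 0.298, 1.23 and 2.73 FPKM in AdCre (log2 fold change 1.52, SE 0.38, adjusted p = 0.0767 with the block). The IRG-like gene 9930111J21Rik2 had 2.21, 2.24 and 2.64 FPKM in AdGFP and 2.72, 4.36 and 4.35 FPKM in AdCre, without overlap (log2 fold change 0.64, adjusted p = 0.0702). Of their 50-base words, 85.8% of those of Tgtp2 occur in Tgtp1 and 56.1% of those of 9930111J21Rik2 in 9930111J21Rik1, so their counts are uncertain, as is that of 9930111J21Rik1 (log2 fold change 0.44). Ifi47 had a log2 fold change of 0.44, F830016B08Rik of 0.51, Gm12250 of 0.05 and Irgq, the most abundant with 16.0 to 23.1 FPKM, of -0.13. Tgtp1, Gm12185, Gm5431, Gm4951, Gm4841 and Irgc1 were too low for a test, with at most 0.928 FPKM in any sample. The related interferon-induced GTPases Mx1, Mx2 and Gvin1 were also below the limit, and their groups did not overlap, with AdCre higher. The share of such genes, 7.36%, was computed for tested genes only. When genes of any level were fitted with the block, limma gave log2 fold changes of 2.18, 1.76 and 0.96. The limma adjusted p was 0.131, 0.174 and 0.324 with the block and 0.375, 0.569 and 0.685 without it. Mx1, named after its values were seen, had 0, 0 and 0.0857 FPKM in AdGFP and 0.784, 0.215 and 0.524 FPKM in AdCre.

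Of the interferon ligand genes, 6 were looked up. Ifng, Ifnb1, Ifna2, Ifna4, Ifnl2 and Ifnl3 were listed at 0 in all 6 samples, and 3 reads, the limit that a count of 0 allows, would have been at most 0.0940 FPKM for Ifng and 0.162 FPKM for Ifnb1. Their receptors were expressed, and 0 of the 6 tested receptor genes were called by limma with the block, with 1 at an unadjusted p under 0.05 and 0 called by voom. Ifngr2, a chain of the interferon-gamma receptor, had 48.1, 51.1 and 43.1 FPKM in AdGFP and 42.5, 41.5 and 33.9 FPKM in AdCre (log2 fold change -0.27, SE 0.07, adjusted p = 0.0894 with the block). Ifngr1, the ligand-binding chain, and Il10rb, a chain shared with interleukin receptors, both had log2 fold changes of -0.19.

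Of the 13 JAK, STAT and IRF signaling genes, all tested, 4 were called higher with the block, against 2.64% of all genes. With the block 0 were called lower, and the median log2 fold change was 0.56. Without the block limma called 0 of the 13, with 3 at an unadjusted p under 0.05, and the adjusted p of the 4 was 0.319 to 0.577. Irf7, the factor that amplifies type I interferon responses, had 1.17, 1.47 and 2.5 FPKM in AdGFP and 2.31, 3.90 and 9.83 FPKM in AdCre. Usp18, which shuts off the type I receptor, had 0.580, 0.551 and 0.974 FPKM in AdGFP and 1.54, 2.64 and 8.20 FPKM in AdCre. The groups overlapped slightly for Irf7 and were separate for Usp18. Their log2 fold changes were 1.40 (SE 0.20, limma adjusted p = 0.0269) and 2.10 (SE 0.32, adjusted p = 0.0286). Irf9, the DNA-binding partner of STAT2, had a log2 fold change of 0.65 (adjusted p = 0.0430), and Irf1, a transcription factor induced early by interferon-gamma, of 0.56 (adjusted p = 0.0470), both with overlap of the groups. The count of 4 ran from 0 to 7 over the 14 alternatives and was 0 without number 2 and 0 without number 3.

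Other genes induced by interferon-gamma were mostly low. Of 16 listed, 7 were tested and 1 was called higher with the block, against 2.64% of all genes. The median log2 fold change of the 7 was 0.66. Cxcl10, a chemokine that also responds to type I interferon, had 0.234, 0.420 and 0.468 FPKM in AdGFP and 0.596, 1.50 and 2.42 FPKM in AdCre (log2 fold change 1.61, SE 0.30, limma adjusted p = 0.0418, and 0.365 without the block). It was called in 8 of 13 alternatives of the blocked fit, with log2 fold changes from 0.80 to 2.00 and adjusted p from 0.00448 to 0.196. The count of higher targets was 2 without number 1, 0 without number 2 and 0 without number 3. Cxcl10 fell below the filter when a mean of at least 1 FPKM was asked for. H2-Ab1, a class II antigen-presentation gene and the most abundant of the 16, named after its values were seen, had 43.9, 36.9 and 25.01 FPKM in AdGFP and 17.3, 34.8 and 9.26 FPKM in AdCre. It was lower in AdCre in 3 of 3 pairs with overlap of the groups (log2 fold change -0.95, SE 0.26, adjusted p = 0.0966), and was the 1 target called lower by voom and without number 2. Its values came out as whole reads with 3274 bases and not with the 2568 bases of GENCODE M21, as for Iigp1. H2-Aa, which encodes the partner chain, and Ciita, the activator of class II genes, had at most 0.124 and 0.0946 FPKM in any sample. Among the genes with which these GTPases work, 0 of 11 autophagy conjugation genes were called by limma with the block, although 3 had an unadjusted p under 0.05 and voom called 2. Their median log2 fold change was 0.03. Atg12, part of the conjugation machinery that IRGs need, had a log2 fold change of 0.44 (adjusted p = 0.0980), Map1lc3b, an ATG8 protein, of 0.29 (adjusted p = 0.165) and Gabarapl1, another, of -0.31 (adjusted p = 0.0820). Of 6 tested inflammasome partners 0 were called by limma or voom, and 2 had an unadjusted p under 0.05. Aim2, a DNA sensor, had a log2 fold change of 0.68 (adjusted p = 0.125), Pycard, the adaptor ASC, of -0.69 (adjusted p = 0.150) and Gsdmd, the pore former, of 0.17 (adjusted p = 0.357).

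**Figure D4:**
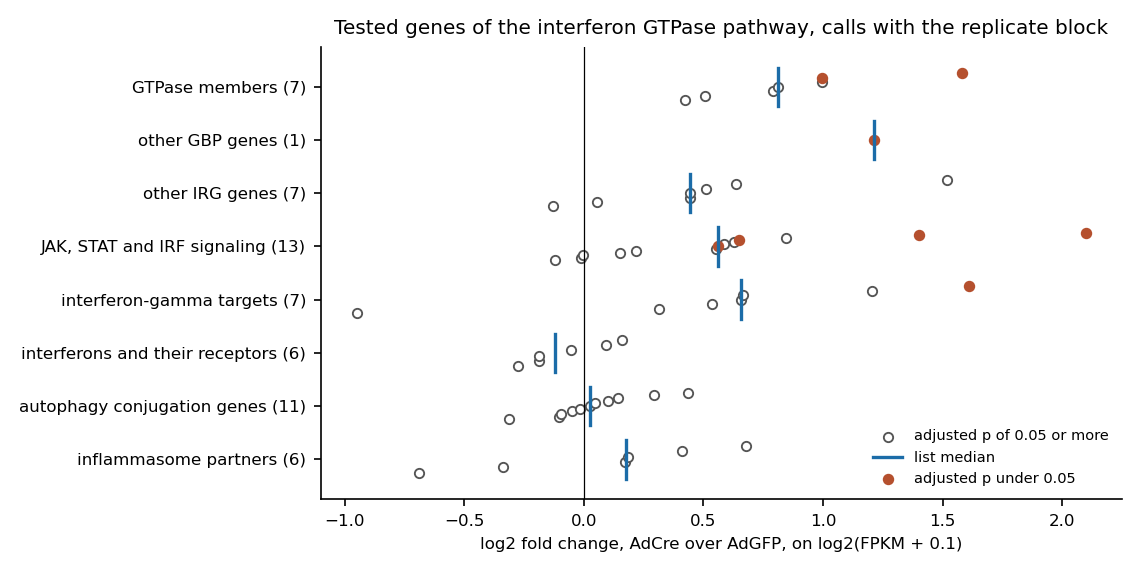
Log2 fold change of AdCre over AdGFP for tested genes of the members and of related lists, with the number tested in brackets. Filled points are called by limma with the replicate block and vertical bars are list medians, at 0.81 for the members, 0.56 for JAK, STAT and IRF signaling and 0.03 for autophagy conjugation genes.

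Genes next to the members had a median log2 fold change of 0.04. Outside the GTPase lists, 129 genes, among them the unlisted Gbp2-ps and Gm43302, lie within 500 kb of a member, of which 35 were tested and 0 were called by limma with the block, with 7 at an unadjusted p under 0.05 and 2 called by voom. Psme2b, a proteasome activator gene near Irgm1, shares 41 bases of exon with the IRG-like gene 9930111J21Rik1. Psme2b had 2.13, 3.11 and 4.46 FPKM in AdGFP and 4.63, 5.88 and 5.65 FPKM in AdCre (log2 fold change 0.77, adjusted p = 0.0522). The groups were separate. The other neighbours with the smallest p were the snoRNA Gm25965 (2.22, adjusted p = 0.0820), which was listed at 0 in AdGFP 1 and AdGFP 3, and Smim3 (0.33, adjusted p = 0.0901).

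The 10 tested genes outside the GTPase lists whose level followed the mean standardised profile of the 7 members most closely over the 6 samples were Socs3, Rnf2, Ifi205, Ifitm3, Dok2, Stat2, Emb, Nr2f1, Ebf3 and Arap3, with Pearson correlations of 0.988 to 0.996. Ifitm3, a membrane protein that blocks virus entry, had 79.8, 119.5 and 207.4 FPKM in AdGFP and 103.6, 198.9 and 397.6 FPKM in AdCre. It was the 1 of the 10 called with the block (log2 fold change 0.68, limma adjusted p = 0.0358). That call was lost without an intensity trend, where the blocked fit called 0 of all genes. Socs3, which restrains cytokine receptors, had 7.39, 9.11 and 10.7 FPKM in AdGFP and 7.81, 11.0 and 13.7 FPKM in AdCre, a log2 fold change of 0.24 (adjusted p = 0.187). Stat2 had 3.03, 6.13 and 7.49 FPKM in AdGFP and 3.79, 8.23 and 14.3 FPKM in AdCre, a log2 fold change of 0.55 (adjusted p = 0.0784). In all 3 of these genes the number 1 sample was the lowest of its group and AdCre 3 was the highest of the 6, as in 6 of the 7 tested members, the exception being Irgm1 with its lowest level in AdGFP 2. The genes were chosen by the members' profile, so the shared order follows from the choice and is no separate result. The members' own correlations with the profile, to which each contributes, were 0.964 to 0.994, and 0.733 for Irgm1.

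Markers of other cell types were called only with the block, since limma without it called 0 of the macrophage, endothelial, cardiomyocyte and fibroblast markers, with 0, 3, 5 and 0 of them at an unadjusted p under 0.05. Of 11 macrophage markers 9 were tested, and 0 of the 11 were listed at 0 in all samples. With the block 2 of the 9 were called higher, against 2.64% of all genes. They were C1qb (log2 fold change 0.50, limma adjusted p = 0.0346) and Lyz2 (0.51, adjusted p = 0.0497). The count was 2 without number 1, 0 without number 2 and 0 without number 3, and voom with the block called 6. Their summed level was 50.2 to 275.0 FPKM in AdGFP and 89.0 to 346.5 FPKM in AdCre, lowest in number 1 as for the members. Within pairs the median log2 difference of the tested macrophage markers was 0.73, 0.44 and 0.33 for numbers 1, 2 and 3, while that of the members was 0.31, 0.87 and 1.28. The log2 fold changes of the 9 tested markers ran from 0.12 for Adgre1, the macrophage marker F4/80, to 1.04 for Fcgr1, an Fc receptor (adjusted p = 0.0519), both named after their values were seen. The part of macrophages in the members' levels was not tested.

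Endothelial markers, all 10 tested, had 4 called higher with the block, Eng, Flt1, Cdh5 and Egfl7, against 2.64% of all genes. The log2 fold changes of the 4 were 0.42 to 0.60. The endothelial sums were 101 to 155 FPKM in AdGFP and 146 to 215 FPKM in AdCre. The count was 3 without number 1, 0 without number 2 and 0 without number 3, and voom called 7. Over all genes the block called 6.15% in either direction and 2.64% as higher. Against this, cardiomyocyte markers had 6 of 10 lower, among them Myl2 (-1.12), Pln (-1.31), Tnni3 (-0.82), Tnnt2 (-0.71) and Actn2 (-1.05). That count was 6 without number 1, 5 without number 2 and 0 without number 3, and voom called 8. Fibroblast markers had 3 of 9 lower, Dcn, Lum and Col3a1, with sums of 2601 to 4662 FPKM in AdGFP and 2287 to 3345 FPKM in AdCre. Their count was 1 without number 1, 0 without number 2 and 0 without number 3. Ddr2, a fibroblast collagen receptor named after its values were seen, was higher in AdCre in 3 of 3 pairs (log2 fold change 0.35, adjusted p = 0.0644) and was the 1 fibroblast marker called higher by voom, which called 3 lower. Markers of T and NK cells, which make interferon-gamma, summed to 0.136 FPKM or less in every sample, 0 of 12 were high enough for a test, and 6 of 12, with Cd3d, Cd3e and Ncr1 among them, were listed at 0 in all samples. The part of these cell types in the members' levels was not tested either.

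**Figure D5:**
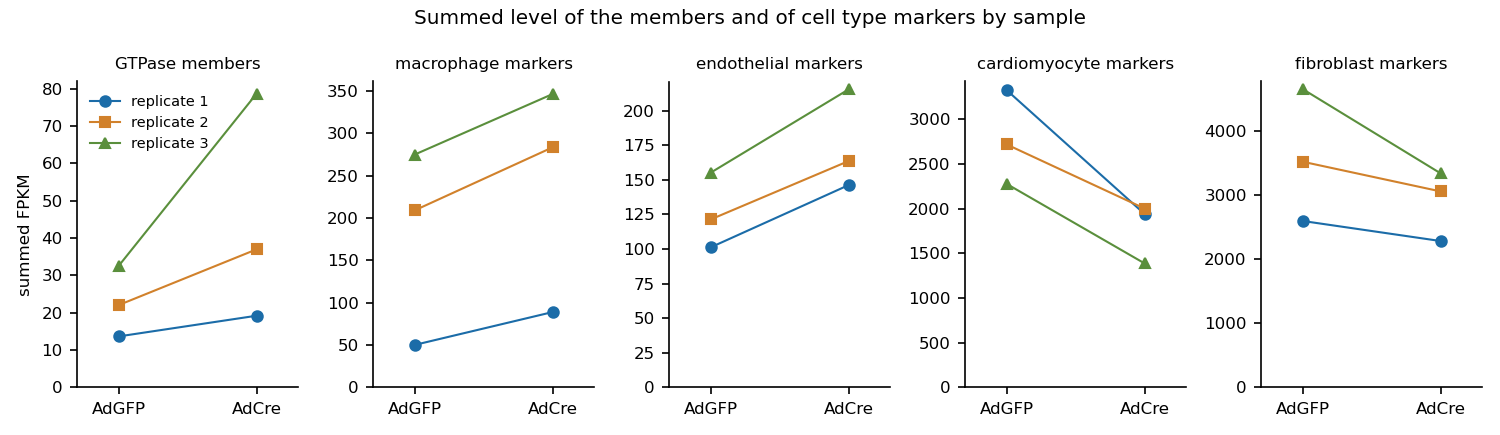
Summed FPKM of the 10 members and of 4 marker lists in the 6 samples, with lines joining samples of the same replicate number and linear axes from 0. The members, macrophage and endothelial sums are higher in AdCre in each pair, and the cardiomyocyte and fibroblast sums are lower.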

How the data were processed

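RNA-seq was performed on 6 samples, 3 AdGFP and 3 AdCre, grouped by their labels. Per the labels, poly-T selected RNA was copied from random hexamers, and the submitters' processing notes name fastp, STAR 2.5, HTSeq 0.6.1 and the build mm10. The authors deposited FPKM per gene and sample. Their annotation, strand setting and FPKM formula are not given in the sources used here. FPKM times GENCODE M21 exon length gave whole reads (tolerance 0.02) for at least 98.1% of low values per sample, though not for Iigp1, H2-Ab1 and some others, and 54409 of 54532 gene IDs were found there. Where strand was not used, reads of overlapping antisense genes cannot be told apart.

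The members and lists were chosen with earlier results of these data known. Values were fitted as log2(FPKM + 0.1) for genes whose mean reached 0.5 FPKM, by group, with lmFit and trended eBayes of limma 3.58.1 (R 4.3.3) and Benjamini-Hochberg adjustment. The fit was tested on simulated data. Same-numbered samples correlated at 0.568, 0.268 and 0.506 in their deviations from group means, other combinations between -0.497 and 0.036, so equal numbers were treated as pairs. This rests on the values alone, and the number was also fitted as a block. Reads of same-group samples differed beyond counting error (chi-square per degree of freedom 35.8 to 113.7), and no label says whether they are separate animals or cultures, so p-values measure the spread between these samples only. Floors cover counting error only.

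Named genes were the members, the other GBP and IRG genes, Rit1, at most 5 called genes of each list by smallest p under the block or otherwise 3, and the 10 most alike in profile. Alternatives were pseudocounts of 1 and 0.01, other filters, protein-coding genes, TPM, median centring, quantile normalization, no trend, the block and leaving out samples. Values without the authors' scaling factors and voom on recovered reads were added after seeing the data. Sequences came from RefSeq promoter records and GENCODE M21 transcripts, read with Python 3.11.15, numpy 2.4.6 and pandas 2.3.3. The exact permutation test used scipy 1.17.1.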

Additional observations from a re-analysis of the deposited data

How the results depend on the processing

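Without the replicate block, 0 of the 7 tested members were called in every alternative but the replicate block itself, which called 2 of 7 and 848 of all genes. The count over all genes, 1 in the fit reported, was 4 without a trend, 3 with a pseudocount of 1, 0 without a filter, 0 by voom on recovered reads, and 0 to 2 when 1 sample was left out. With 1 sample left out, the log2 fold change of Igtp ran from -0.095 to 1.09 and that of Irgm2 from -0.17 to 1.02. It was below 0 without AdCre 3 for both and without AdGFP 1 for Irgm2 (-0.12). The other 5 tested members kept their direction in all 18 alternatives, but without AdCre 3 Gbp2 was at 0.08, Iigp1 at 0.18, Gbp7 at 0.21 and Gbp3 at 0.84.

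With the replicate block, 2 members were called, and 1 with a pseudocount of 1, 0 without a filter, 0 without a trend, 6 by voom and 0 to 5 when both samples of a number were left out. The 848 calls over all genes became 17 without a filter, 0 without a trend, 1738 by voom, and 152 without number 2, within a range of 1 to 811 with a number left out. The 7 tested members kept their direction in all 14 alternatives of that fit. The cause of these shifts was not tested, except that leaving out a number leaves 2 pairs. Depth limits Gbp4, Gbp5 and Gbp6 most, which had 0 to 86 reads per sample.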
